A study of Mus musculus with 9 samples.

Results

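The genes described here are 34 members of the glycolysis and hypoxia response module, out of 22048 genes counted in cultured mouse islets. The module was given as a list of gene symbols, so that no measured value chose its members, and each symbol was matched to its Ensembl identifier. By role, 19 are enzymes, regulators or a glucose transporter of glycolysis, 11 are genes that hypoxia-inducible factors are known to switch on, and 4 regulate the oxygen-sensing pathway. Islets from the pancreas of outbred ICR mice were kept for 3 days in RPMI medium with 35 or 20 mM glucose, or with 11.8 mM, the normal glucose of that medium. The series names these extreme hyperglycemic, hyperglycemic and normoglycemic conditions, and each had 3 libraries. No genetic change was labelled, and all groups shared serum, antibiotics and culture time. The labels speak of 9 mice without saying that each library came from a separate animal, so the p-values measure the spread between these libraries, which may be technical. The treatment text gives 25 mM for the highest concentration, whereas titles, sample characteristics and design text give 35 mM, which was followed.

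Glycolysis splits glucose into pyruvate in the cytosol and yields ATP and NADH. Lactate dehydrogenase turns pyruvate into lactate, and beta cells are known for holding its muscle-type subunit low, so that most pyruvate enters the mitochondria and drives insulin secretion. Hypoxia-inducible factors (HIF) are transcription factors whose alpha subunits are marked for destruction by prolyl hydroxylases while oxygen is present. When oxygen falls they accumulate, bind DNA elements with the core ACGTG or GCGTG and switch on glycolytic genes and others, and the centre of cultured islets is known to be poor in oxygen.

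The promoters below carry that core in different numbers. They are shown because, among the libraries of 11.8 mM, their genes were all highest in the second, as described further on. They come from RefSeq (GRCm38.p6), run 5′ to 3′ on the gene's strand from 250 bases before the transcription start to 50 after it, and have ACGTG or its reverse complement CACGT in capitals. CACGTG holds the core on both strands, with the matches overlapping. The windows are chr7:46845554-46845853 (+ strand) for Ldha, chr7:138909457-138909756 (- strand) for Bnip3, chr4:119108495-119108794 (+ strand) for Slc2a1, chr4:43506776-43507075 (+ strand) for Car9 and chr4:150236458-150236757 (+ strand) for Eno1.
Ldha: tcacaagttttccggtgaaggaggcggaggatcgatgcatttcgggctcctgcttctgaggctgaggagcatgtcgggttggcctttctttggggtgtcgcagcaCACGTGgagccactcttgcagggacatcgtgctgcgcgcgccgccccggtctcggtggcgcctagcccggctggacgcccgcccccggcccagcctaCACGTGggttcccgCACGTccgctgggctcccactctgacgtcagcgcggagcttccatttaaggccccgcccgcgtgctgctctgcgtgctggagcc
Bnip3: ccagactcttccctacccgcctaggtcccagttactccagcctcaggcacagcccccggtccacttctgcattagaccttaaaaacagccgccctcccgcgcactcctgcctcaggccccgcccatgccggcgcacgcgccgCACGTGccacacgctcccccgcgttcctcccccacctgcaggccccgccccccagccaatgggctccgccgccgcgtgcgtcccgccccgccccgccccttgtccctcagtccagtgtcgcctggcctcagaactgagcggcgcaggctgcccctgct
Slc2a1: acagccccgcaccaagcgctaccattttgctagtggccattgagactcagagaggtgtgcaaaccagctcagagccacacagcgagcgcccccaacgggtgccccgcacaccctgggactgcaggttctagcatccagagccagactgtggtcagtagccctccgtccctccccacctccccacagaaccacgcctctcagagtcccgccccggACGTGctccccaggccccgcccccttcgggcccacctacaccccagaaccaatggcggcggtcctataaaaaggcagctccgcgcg
Car9: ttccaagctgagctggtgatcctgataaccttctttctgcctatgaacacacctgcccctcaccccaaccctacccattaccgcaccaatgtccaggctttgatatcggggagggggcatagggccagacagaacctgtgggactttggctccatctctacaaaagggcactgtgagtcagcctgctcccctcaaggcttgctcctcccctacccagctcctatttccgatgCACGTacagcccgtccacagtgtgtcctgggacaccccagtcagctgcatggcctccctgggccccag
Eno1: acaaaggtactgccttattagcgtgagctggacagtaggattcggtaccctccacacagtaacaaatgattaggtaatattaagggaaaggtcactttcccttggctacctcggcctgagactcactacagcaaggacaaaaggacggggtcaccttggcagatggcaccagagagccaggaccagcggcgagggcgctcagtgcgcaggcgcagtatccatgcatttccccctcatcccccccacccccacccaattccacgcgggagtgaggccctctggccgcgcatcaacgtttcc
Ldha had 5 matches to ACGTG, Bnip3 2, Slc2a1 and Car9 1 each, and the Eno1 window held none of these letters in this order. The other core, GCGTG, which is not in capitals, stood on either strand 2 times in Ldha and in Eno1, 3 times in Bnip3, 1 time in Slc2a1 and 0 times in Car9. Of the 33 members with a RefSeq promoter (Ndrg1 is named only), 19 held ACGTG on either strand (57.6%), against 26.7% of the 7768 promoters of tested genes and 19.7% of all 27025 promoters of this length. GCGTG stood in 60.6% of member promoters, against 53.6% of those of tested genes and 32.5% of all promoters. The palindrome CACGTG stood in 15.2%, against 10.6% and 7.24%. The 33 include members that were not tested. The module lists genes that HIF is known to switch on, so these shares describe the list and are no result of the measurements. Of the tested members not printed, Gapdh, Pgam1, Egln1 and P4ha1 held ACGTG and were also highest in the second of the 11.8 mM libraries. Gpi1, Pfkl, Pfkp, Aldoa, Tpi1, Eno2, Pkm and Pdk1 were highest there without holding it. Pfkm, Hif1a, Pfkfb2, Ankrd37, Aldoc, Pfkfb3, Ddit4 and Higd1a held it but were highest in another 11.8 mM library. Ldhb, Kdm3a and Mxi1 neither held it nor were highest there. Members that held ACGTG and members that did not were thus found on both sides. A match describes letters only and says nothing of binding, and the promoters and motifs were chosen after the values were seen. Because the printed promoters were picked for the second 11.8 mM library, they cannot show whether the motif goes with levels there.

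RNA was measured with CEL-Seq2, which counts reads from the 3′ end of transcripts, and levels are given in CPM, counts scaled by library size, with library sizes adjusted by TMM, a trimmed mean of gene ratios. Libraries held 3228648 to 4559561 gene counts. Of the 27 sub-libraries, 1 of the first 35 mM library and 1 of the first 11.8 mM library stood apart, with 72 and 60.9 alignments that were not unique for every 100 gene counts, against 13.6 to 22.9 in the others, and without them 0 members were called as well. Every beta cell marker of the list was above 0 in all libraries (8 of 8), and Ins1 and Ins2 together took 48.3% to 57.5% of the gene counts, as the label of pancreatic islets says. In bulk RNA, fewer cells of a type and less RNA per cell cannot be told apart. Of the 34 members, 28 passed the filter on low counts and were tested, and 6 did not (Hk2, Pgk1, Egln3, Car9, Adm and Hif3a).

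No tested member rose or fell in any of the 3 comparisons, by the quasi-likelihood test of edgeR and Benjamini-Hochberg adjustment over all 9739 genes tested. At 35 against 11.8 mM, 0 of 28 members passed, where 0.863% of all genes did (84 genes). At 20 against 11.8 mM, 0 passed, against 0.185% of all genes (18 genes). At 35 against 20 mM, 0 passed, against 0.0308% (3 genes). The DESeq2 Wald test also called 0 members in each comparison. The lowest adjusted p of a member was 0.338 (Ldhb) at 35 against 11.8 mM, 0.56 (Pfkm) at 20 against 11.8 mM and 0.905 (Pkm and Ldhb) at 35 against 20 mM. The comparisons share libraries, those of 11.8 mM, 20 mM or 35 mM, and are therefore not independent of each other.

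The sizes of change that the data leave room for differ by gene. A 95% interval that lay within a 2-fold change in either direction was found for 21 of 28 members at 35 against 11.8 mM, for 21 at 20 against 11.8 mM and for 19 at 35 against 20 mM. Standard errors of the members' log2 fold changes had a median of 0.24. In simulated data for 35 against 11.8 mM, the same test found 16.2% of 1.5-fold changes, 58.8% of 2-fold changes and 92.2% of 4-fold changes, so that smaller changes could often go without a call. These changes were put into genes drawn from all those tested, with the same spread at every concentration. The shares are therefore not those of the members, which spread more than other genes at 11.8 mM, as described further on.

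**Figure D1:**
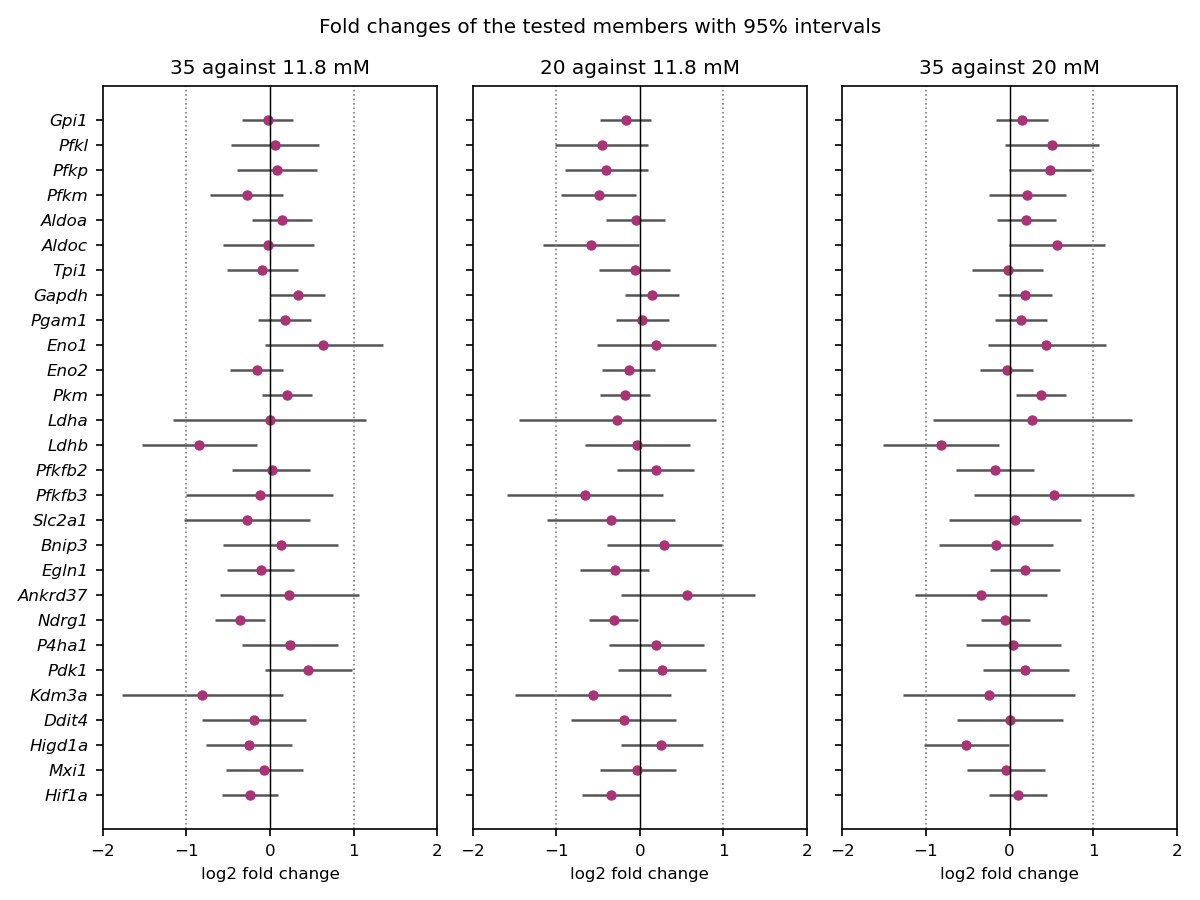
Log2 fold change (points) and its 95% interval (lines) of the 28 tested members in each comparison, with dotted lines at a 2-fold change in either direction. Ldha has the widest interval among the enzymes at 35 against 11.8 mM (-1.16 to 1.15), and the interval of Pgam1 (-0.14 to 0.49) lies within the dotted lines.

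At 35 against 11.8 mM the members stood on both sides of zero, with 12 positive and 16 negative log2 fold changes and a median of -0.02, where the median of all genes was -0.0. An unadjusted p under 0.05 was found for 3 members (Ldhb, Ndrg1 and Gapdh), where 10.5% of all genes had one. The libraries of both concentrations did not overlap in 3 members (Ldhb, Pfkm and Kdm3a, all lower at 35 mM), where 14.9% of all genes did not overlap. At 20 against 11.8 mM the median of the members was -0.15, with 9 positive and 19 negative values. There, 4 members (Pfkm, Ndrg1, Aldoc and Hif1a) had an unadjusted p under 0.05 (7.97% of all genes), and 6 did not overlap (12.8% of all genes). Of these 6, Pfkm, Aldoc, Egln1, Kdm3a and Hif1a were lower at 20 mM, and Ankrd37 was higher. At 35 against 20 mM the median was 0.12, with 18 positive and 10 negative values. Here 3 members (Pkm, Ldhb and Higd1a) had an unadjusted p under 0.05 (5.29% of all genes), and 4 did not overlap (11.9% of all genes), Pfkp, Eno1 and Pkm higher and Ldhb lower at 35 mM.

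Glucose enters the pathway through transporters and hexokinases. Slc2a1, a facilitative glucose transporter that HIF is known to induce, was at 3.73, 8.33 and 3.21 CPM in the 11.8 mM libraries, at 3.39, 3.79 and 5.08 CPM at 20 mM and at 4.83, 4.64 and 3.41 CPM at 35 mM. A single library, the second at 11.8 mM, lay above all others, and the groups overlapped. Its log2 fold change was -0.27 ± 0.37 (SE) at 35 against 11.8 mM and -0.34 ± 0.37 at 20 against 11.8 mM. Hk2, a hexokinase with high glucose affinity that mature beta cells are known to hold low, had 0 to 5 counts per library, 23 counts in all. The library without a count, the third at 35 mM, allows up to 0.852 CPM (3 counts, counting error only). Gpi1, which turns glucose 6-phosphate into fructose 6-phosphate, averaged 99.6 ± 8.57 CPM at 35 mM and 101 ± 26.7 CPM at 11.8 mM (SD, n = 3 each), a log2 fold change of -0.02 with a 95% interval of -0.33 to 0.28.

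Phosphofructokinase, which commits the sugar to glycolysis, is built from the liver, platelet and muscle subunits Pfkl, Pfkp and Pfkm. Pfkm was at 17.1, 16.9 and 16.3 CPM at 11.8 mM, at 11.4, 11.1 and 13.2 CPM at 20 mM, and at 15.8, 15.7 and 9.94 CPM at 35 mM. All 20 mM libraries lay below all 11.8 mM libraries, and so did those of 35 mM. The log2 fold change was -0.49 ± 0.22 at 20 against 11.8 mM (SE; unadjusted p = 0.0323, adjusted p = 0.56, edgeR with Benjamini-Hochberg adjustment) and -0.28 ± 0.22 at 35 against 11.8 mM.

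Pfkl was at 10.1, 17.1 and 8.74 CPM at 11.8 mM, at 6.47, 10.4 and 9.59 CPM at 20 mM, and at 12.6, 15.4 and 9.94 CPM at 35 mM. Its groups overlapped in every comparison, and the second library was the highest at each concentration. Pfkp was at 15.5, 27.6 and 12.2 CPM at 11.8 mM, at 15.7, 13.4 and 13.5 CPM at 20 mM, and at 21.5, 21.8 and 16.2 CPM at 35 mM. The 35 mM libraries lay above the 20 mM libraries, while the 11.8 mM libraries spanned both. Log2 fold changes at 35 against 20 mM were 0.48 ± 0.24 for Pfkp and 0.51 ± 0.27 for Pfkl (adjusted p = 0.932 for each, edgeR with Benjamini-Hochberg adjustment). At 20 against 11.8 mM they were -0.40 ± 0.24 and -0.45 ± 0.27. The value of Pfkp at 20 against 11.8 mM rested on the second 11.8 mM library, without which it was 0.03, and that of Pfkl was then -0.09.

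The bifunctional enzymes Pfkfb2 and Pfkfb3 make and break fructose 2,6-bisphosphate, the activator of phosphofructokinase. Pfkfb2 averaged 15.3 ± 4.49 CPM at 11.8 mM, 17.5 ± 3.94 CPM at 20 mM and 15.4 ± 0.757 CPM at 35 mM (SD, n = 3 each). Pfkfb3 averaged 3.32 ± 1.11, 2.10 ± 0.629 and 3.09 ± 0.621 CPM at these concentrations. Neither had an unadjusted p under 0.05, and the interval of Pfkfb3 at 20 against 11.8 mM was wide (-1.59 to 0.28).

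Aldolase splits fructose 1,6-bisphosphate into triose phosphates. Aldoa, the muscle form, was at 376, 527 and 295 CPM at 11.8 mM, at 321, 445 and 388 CPM at 20 mM and at 441, 488 and 396 CPM at 35 mM. The 11.8 mM libraries held both the highest and the lowest value of all libraries, and the log2 fold change was 0.14 ± 0.17 at 35 against 11.8 mM. Aldoc, the brain form, was at 12.8, 9.72 and 9.03 CPM at 11.8 mM, at 8.62, 6.32 and 6.20 CPM at 20 mM and at 10.7, 13.7 and 6.82 CPM at 35 mM. All 20 mM libraries lay below all 11.8 mM libraries, and the 35 mM libraries overlapped with both groups. Its log2 fold change was -0.58 ± 0.28 at 20 against 11.8 mM (adjusted p = 0.609, edgeR with Benjamini-Hochberg adjustment) and 0.57 ± 0.28 at 35 against 20 mM (adjusted p = 0.932).

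In the middle of the pathway, Gapdh, which oxidises glyceraldehyde 3-phosphate and makes NADH, was at 102, 118 and 70.2 CPM at 11.8 mM, at 114, 113 and 94.2 CPM at 20 mM and at 113, 144 and 108 CPM at 35 mM. The third 11.8 mM library lay below all others, and the groups overlapped through the second 11.8 mM library, which lay above the first and the third of 35 mM. Its log2 fold change was 0.33 ± 0.16 at 35 against 11.8 mM (unadjusted p = 0.0481, adjusted p = 0.468, edgeR with Benjamini-Hochberg adjustment). Tpi1, which interconverts the triose phosphates, averaged 82.4 ± 17.2 CPM at 35 mM and 87.2 ± 28.5 CPM at 11.8 mM (log2 fold change -0.09 ± 0.20). Pgam1, a phosphoglycerate mutase, averaged 302 ± 30.8 CPM at 35 mM and 267 ± 59.6 CPM at 11.8 mM (0.18 ± 0.15). Pgk1, the ATP-making phosphoglycerate kinase, had 2 to 9 counts per library, 49 in all, and was not tested. Gapdh and Pgam1 had 3582 and 9315 counts in the same libraries. Whether the low counts of Pgk1 reflect its expression or its counting was not tested.

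Enolase makes phosphoenolpyruvate. Eno1, the general form (chr4:150236721-150248879, + strand, GRCm38), was at 188, 311 and 128 CPM at 11.8 mM, at 212, 262 and 249 CPM at 20 mM, and at 336, 383 and 262 CPM at 35 mM. The 35 mM libraries did not overlap with those of 20 mM, although the lowest and the highest of them both round to 262 CPM, whereas the second 11.8 mM library lay among those of 35 mM. The log2 fold change was 0.64 ± 0.30 at 35 against 11.8 mM (SE; adjusted p = 0.533, edgeR with Benjamini-Hochberg adjustment), 0.20 ± 0.30 at 20 against 11.8 mM (adjusted p = 0.937) and 0.44 ± 0.30 at 35 against 20 mM (adjusted p = 0.932). Without the second 11.8 mM library, Eno1 passed at 35 against 11.8 mM, with 1.05 ± 0.18 (adjusted p = 0.00081). Without the third 11.8 mM library it was 0.39 ± 0.19 (adjusted p = 0.583). Counts of Eno1 are uncertain as well, because 80.0% of the windows of 50 bases in the last 400 bases of its transcripts also occur in 8 other annotated genes. Eno2, the form of neurons and endocrine cells, averaged 56.7 ± 6.21 CPM at 35 mM and 63.4 ± 9.88 CPM at 11.8 mM, a log2 fold change of -0.16 ± 0.15.

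Pyruvate kinase ends the pathway. Pkm (chr9:59656368-59679375, + strand) was at 757, 984 and 625 CPM at 11.8 mM, at 621, 782 and 688 CPM at 20 mM, and at 909, 1003 and 809 CPM at 35 mM. All 35 mM libraries lay above all 20 mM libraries, with those of 11.8 mM spread across both. The log2 fold change at 35 against 20 mM was 0.38 ± 0.15 (SE; 95% interval 0.08 to 0.68; unadjusted p = 0.0147, adjusted p = 0.905, edgeR with Benjamini-Hochberg adjustment). The values were 0.20 ± 0.15 at 35 against 11.8 mM and -0.18 ± 0.15 at 20 against 11.8 mM. The 3′ counts do not tell the splice forms of Pkm apart.

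Lactate dehydrogenase had subunits with different patterns. Ldhb, the heart-type subunit (chr6:142490249-142507957, - strand), was at 5.86, 5.79 and 6.70 CPM at 11.8 mM, at 7.39, 5.31 and 5.36 CPM at 20 mM, and at 2.42, 4.07 and 3.69 CPM at 35 mM. All 35 mM libraries lay below every library of the other concentrations. This gave a log2 fold change of -0.85 ± 0.34 at 35 against 11.8 mM (SE; 95% interval -1.53 to -0.16; unadjusted p = 0.0172, adjusted p = 0.338, edgeR with Benjamini-Hochberg adjustment) and -0.82 ± 0.34 at 35 against 20 mM (adjusted p = 0.905), comparisons that share the 35 mM libraries. The gene had 170 counts in all 9 libraries. With each library left out in turn, its value at 35 against 11.8 mM ran from -1.0 to -0.65 and never passed.

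Ldha, the muscle-type subunit (chr7:46841475-46855627, + strand), was at 26.9, 58.8 and 14.3 CPM at 11.8 mM, at 31.1, 30.3 and 22.6 CPM at 20 mM, and at 27.6, 41.5 and 32.4 CPM at 35 mM. The second and the third 11.8 mM libraries were the highest and the lowest of all 9, and the other groups lay between them. The log2 fold change at 35 against 11.8 mM was -0.00 ± 0.48 (95% interval -1.16 to 1.15), so that a 2-fold change of Ldha in either direction was not excluded. It was 0.71 ± 0.24 without the second 11.8 mM library (adjusted p = 0.199, edgeR with Benjamini-Hochberg adjustment) and -0.36 ± 0.27 without the third library (adjusted p = 0.788).

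**Figure D2:**
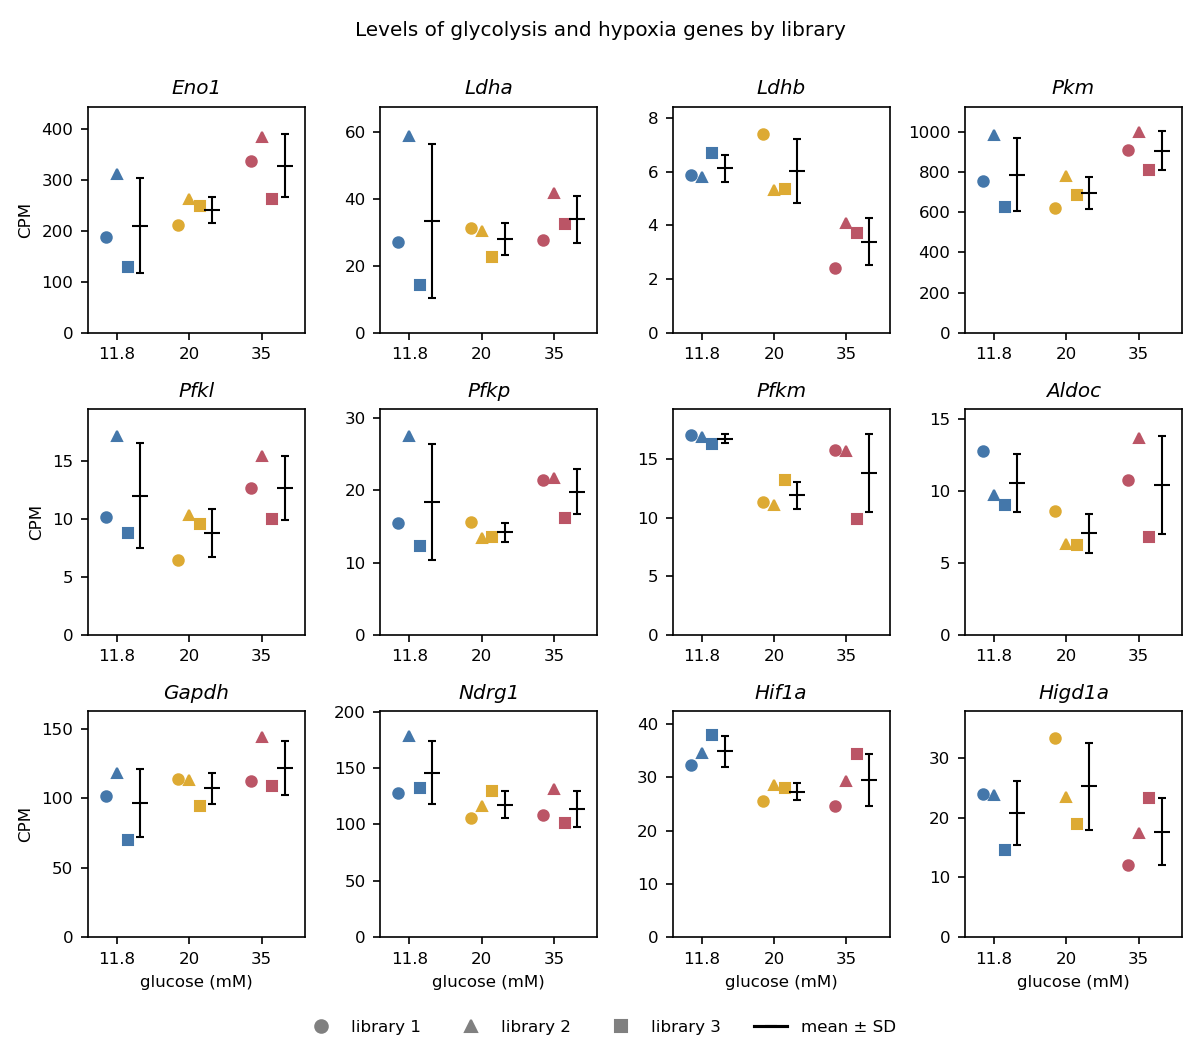
Levels in CPM on linear axes from 0 for 12 members, by glucose concentration, with each of the 3 libraries as a symbol and the mean ± SD beside them in black. Ldhb lies lower in every 35 mM library (2.42 to 4.07 CPM) than in any other, while Ldha and Eno1 spread most at 11.8 mM.

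Among the genes that HIF is known to induce, 9 of 11 were tested, and their median log2 fold change was -0.07 at 35 against 11.8 mM, 0.20 at 20 against 11.8 mM and -0.05 at 35 against 20 mM. Ndrg1, a stress-responsive gene of the N-myc downstream regulated family (chr15:66929318-66969640, - strand), was at 127, 178 and 132 CPM at 11.8 mM, at 106, 116 and 130 CPM at 20 mM, and at 109, 132 and 101 CPM at 35 mM. The groups overlapped only at their edges, the highest libraries of 20 and of 35 mM lying among the lower ones of 11.8 mM. Its log2 fold change was -0.36 ± 0.15 at 35 against 11.8 mM (unadjusted p = 0.0196, adjusted p = 0.356, edgeR with Benjamini-Hochberg adjustment) and -0.31 ± 0.15 at 20 against 11.8 mM (adjusted p = 0.592).

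Kdm3a, a histone demethylase of lysine 9 of histone H3, was at 3.46, 3.01 and 3.50 CPM at 11.8 mM, at 1.85, 2.02 and 2.82 CPM at 20 mM and at 1.88, 1.74 and 1.99 CPM at 35 mM. Every library of 20 and of 35 mM lay below every library of 11.8 mM, on 82 counts in all. Kdm3a had a log2 fold change of -0.81 ± 0.47 at 35 against 11.8 mM (95% interval -1.77 to 0.15; adjusted p = 0.586, edgeR with Benjamini-Hochberg adjustment) and -0.56 ± 0.46 at 20 against 11.8 mM.

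Pdk1, a kinase that shuts pyruvate dehydrogenase and so keeps pyruvate out of the mitochondria, was at 8.0, 12.7 and 9.61 CPM at 11.8 mM, at 16.6, 11.9 and 8.46 CPM at 20 mM, and at 13.7, 11.6 and 16.8 CPM at 35 mM. The libraries at 35 mM overlapped with those at 11.8 mM through the second library of each. Its log2 fold change at 35 against 11.8 mM was 0.46 ± 0.25 (adjusted p = 0.559, edgeR with Benjamini-Hochberg adjustment). Higd1a, a mitochondrial inner membrane protein induced by hypoxia, was at 24.0, 23.8 and 14.6 CPM at 11.8 mM, at 33.3, 23.5 and 18.9 CPM at 20 mM, and at 12.1, 17.4 and 23.3 CPM at 35 mM. The groups overlapped, and its log2 fold change at 35 against 20 mM was -0.52 ± 0.25 (unadjusted p = 0.046, adjusted p = 0.932, edgeR with Benjamini-Hochberg adjustment).

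Bnip3, a mitophagy receptor, was at 42.4, 88.7 and 68.2 CPM at 11.8 mM, at 87.8, 96.0 and 60.6 CPM at 20 mM and at 60.1, 95.8 and 63.1 CPM at 35 mM, and its groups overlapped in every comparison. Ankrd37, an ankyrin repeat protein, averaged 4.15 ± 0.579 CPM at 20 mM and 2.81 ± 0.351 CPM at 11.8 mM (SD, n = 3 each), without overlap (log2 fold change 0.57 ± 0.39, 95% interval -0.23 to 1.38). P4ha1, a collagen prolyl hydroxylase subunit, Ddit4, an inhibitor of the mTORC1 growth pathway, and Mxi1, a MYC antagonist, had log2 fold changes of 0.24 ± 0.28, -0.19 ± 0.30 and -0.07 ± 0.22 at 35 against 11.8 mM. For Mxi1 all 3 intervals lay within a 2-fold change.

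The genes of this group that were not tested had few counts. Car9, a membrane carbonic anhydrase that is a widely used hypoxia marker, had 1, 25 and 1 counts in the 11.8 mM libraries, 7, 7 and 1 at 20 mM and 9, 6 and 9 at 35 mM. The second 11.8 mM library thus gave 25 of its 66 counts. Adm, the precursor of the vasodilator adrenomedullin, had 1 to 6 counts per library and 23 in all.

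Of the regulators, Hif1a, the oxygen-regulated alpha subunit (chr12:73901375-73947530, + strand), was at 32.2, 34.5 and 37.9 CPM at 11.8 mM, at 25.6, 28.6 and 27.9 CPM at 20 mM, and at 24.7, 29.3 and 34.4 CPM at 35 mM. All 20 mM libraries lay below all 11.8 mM libraries, and the 35 mM libraries reached into both groups. Hif1a had a log2 fold change of -0.35 ± 0.17 at 20 against 11.8 mM (95% interval -0.69 to -0.00; unadjusted p = 0.0473, adjusted p = 0.618, edgeR with Benjamini-Hochberg adjustment) and -0.24 ± 0.17 at 35 against 11.8 mM (adjusted p = 0.681). HIF alpha is regulated mainly as a protein, which these RNA counts do not measure.

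Egln1, the main prolyl hydroxylase that marks HIF alpha, averaged 18.2 ± 1.51 CPM at 11.8 mM, 14.8 ± 1.13 CPM at 20 mM and 16.8 ± 2.54 CPM at 35 mM (SD, n = 3 each). Its log2 fold change at 20 against 11.8 mM was -0.30 ± 0.20. Egln3, a prolyl hydroxylase that HIF itself induces, had 2, 17 and 0 counts at 11.8 mM, 5, 3 and 5 at 20 mM and 4, 8 and 4 at 35 mM. The second 11.8 mM library again stood above the rest, and the third library, with none, allows up to 0.874 CPM. Hif3a, an alpha subunit with forms that inhibit the others, had 4 counts in all and was at 0 in 7 of 9 libraries, each of which allows 0.694 to 0.924 CPM.

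The widest differences within the module lay between libraries of 11.8 mM, a pattern noticed after the values were seen. Its second library had the highest level of the group in 17 of 28 tested members, where 32.9% of all genes were highest there. The third library had the lowest level in 18 of 28, against 33.5% of all genes. Among the 17 tested glycolytic members these counts were 12 and 15. The median SD of log2(CPM + 1) between the 11.8 mM libraries was 0.35 for members and 0.24 for all tested genes, compared with 0.23 and 0.22 at 20 mM and 0.22 and 0.22 at 35 mM. The summed level of the glycolytic members was 2040, 2760 and 1610 CPM at 11.8 mM, 1830, 2280 and 2000 CPM at 20 mM, and 2440, 2750 and 2180 CPM at 35 mM. The second library held the highest sum at every concentration. It was the highest for 9 of 17 glycolytic members at 20 mM (31.7% of all genes) and for 15 of 17 at 35 mM (32.8%). It was the lowest for 4 of them at 20 mM (30.8% of all genes) and for 0 at 35 mM (31.0%).

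**Figure D3:**
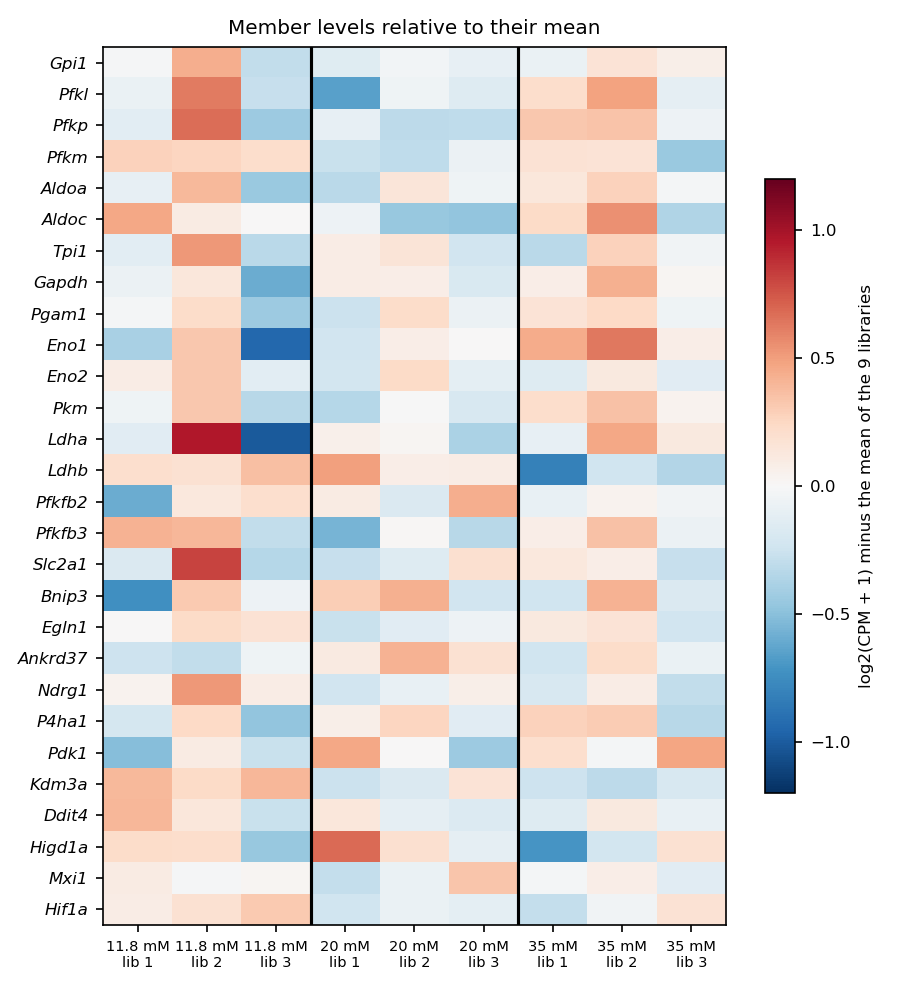
Level of each tested member on the log2(CPM + 1) scale minus its mean over the 9 libraries (red above, blue below), with libraries in columns by glucose concentration. The second 11.8 mM library is red for most glycolytic members and the third is blue, and relative to the mean of the 11.8 mM libraries alone the medians over the 17 glycolytic members are 0.34 and -0.36.

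Each library was sequenced as 3 barcoded sub-libraries, which are parts of a sample and no replicates of a condition. For Ldha, the sub-libraries of the second 11.8 mM library ran from 52.8 to 57.6 CPM on plain library sizes, and those of the third from 8.82 to 15.7 CPM. For Eno1 they ran from 281 to 309 CPM and from 111 to 121 CPM. Every sub-library of the second lay above every sub-library of the third in 16 of 28 members (57.1%) and below in 0. Of all 9739 tested genes, 1134 (11.6%) lay above in this way and 577 below. For these 16 members the difference was therefore present in each barcode separately. Members and all tested genes were not matched by count, and low counts can hide such a split. Plain library sizes include Ins1 and Ins2, which took 53.7% of the gene counts in the second library and 57.5% in the third. Members without such a split were Pfkm, Aldoc, Ldhb, Pfkfb2, Pfkfb3, Egln1, Ankrd37, Pdk1, Kdm3a, Ddit4, Mxi1 and Hif1a.

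**Figure D4:**
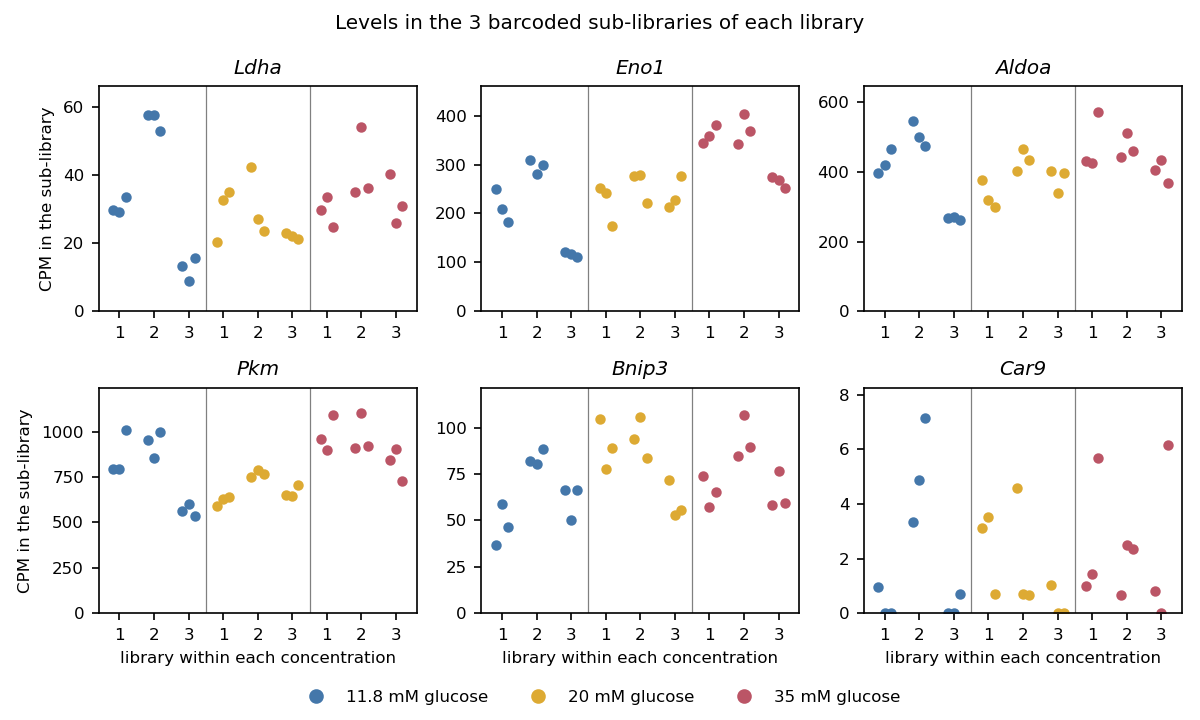
Level of 6 members in each of the 3 barcoded sub-libraries (points, CPM on plain library sizes, axes from 0) of the libraries 1 to 3 at each concentration. For Ldha, Eno1, Aldoa and Pkm the points of the second 11.8 mM library lie together above those of the third, and Car9 reaches 7.15 CPM in the second 11.8 mM library on few counts.

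Depth and the levels of cell type markers also differed between these libraries. The second library was the deepest of its group at each concentration, at 4559561 for 11.8 mM, 4026648 for 20 mM and 3614552 for 35 mM (sums of gene counts). Summed acinar marker levels were 4740, 14300 and 4060 CPM at 11.8 mM, with 15 of 15 markers above 0 in every library, and thus also highest in the second. At 20 mM (13700, 8480 and 7830 CPM) and at 35 mM (11400, 7690 and 7510 CPM) the acinar sum was highest in the first library instead, while the glycolytic sum was highest in the second. Fibroblast and stellate markers summed to 592, 632 and 385 CPM at 11.8 mM, ductal markers to 213, 307 and 191 CPM, and markers of PP cells, the endocrine cells that make pancreatic polypeptide, to 6410, 9120 and 5680 CPM, all in the order of the glycolytic sum. Macrophage and immune markers (168, 204 and 171 CPM) and endothelial markers (20.3, 27.3 and 21.0 CPM) were also highest in the second library. Beta cell markers summed to 449000, 583000 and 653000 CPM and were highest in the third. Alpha cell markers (17800, 17600 and 16500 CPM) and delta cell markers (17500, 15400 and 11400 CPM) were highest in the first. At 20 and 35 mM, the fibroblast, ductal, PP and macrophage sums were highest in the first or the third library. Of all these marker sums, only that of endothelial markers was highest in the second library at every concentration. The part of depth and of these markers in the result was not tested.

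The members' median log2 fold change at 35 against 11.8 mM moved with the 11.8 mM libraries in the fit. It was 0.18 without the second, -0.13 without the third and -0.07 without the first, against -0.02 with all of them. Without the second library, all genes stood at a median of 0.01, 17 of 28 members were positive, and Eno1 was the only member called. By size of p, Eno1 was followed in that fit by Ldha (0.71 ± 0.24), Gapdh (0.50 ± 0.17), Pkm (0.39 ± 0.15), Aldoa (0.40 ± 0.16) and Ldhb (-0.89 ± 0.38). The adjusted p of these was 0.199, 0.21, 0.328, 0.341 and 0.386 by edgeR with Benjamini-Hochberg adjustment, and Kdm3a was at -0.88 ± 0.54 (adjusted p = 0.612). At 20 against 11.8 mM the members' median was 0.04 without the second library, -0.27 without the third and -0.15 without the first, and 0 members were called in each.

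Many members had their lowest mean at 20 mM, which was also noticed after the values were seen. Of 28 tested members, 13 did (46.4%), and of 17 glycolytic members, 10 did (58.8%), where 31.3% of all tested genes had their lowest mean there. The count rested on the second 11.8 mM library. Without it, 7 members (25.0%) and 4 of 17 glycolytic members (23.5%) had their lowest mean at 20 mM, where 30.1% of all tested genes did. These 7 were Pfkl, Pfkm, Pfkfb3, Aldoc, Ddit4, Egln1 and Hif1a. Without the third 11.8 mM library the counts were 16 members and 13 glycolytic members. Acinar markers stood higher at 20 than at 11.8 mM in 15 of 15 genes (median log2 fold change 0.38, none passing the test), and their part in the levels at 20 mM was not tested.

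The other genes of these pathways were taken as lists outside the module. Of 16 tested genes among 24 other glycolytic enzymes and transporters of sugar or lactate, 1 rose and 15 did not pass at 35 against 11.8 mM. At 20 against 11.8 mM none of the 16 passed, and at 35 against 20 mM 1 rose. Pklr, the pyruvate kinase gene of liver and red cells, averaged 8.69 ± 3.14 CPM at 35 mM and 4.82 ± 0.643 CPM at 11.8 mM (log2 fold change 0.83 ± 0.32; adjusted p = 0.308, edgeR with Benjamini-Hochberg adjustment). Fbp2, a fructose bisphosphatase that works against phosphofructokinase, averaged 12.4 ± 4.37 CPM at 20 mM and 5.79 ± 2.81 CPM at 11.8 mM (1.06 ± 0.31; adjusted p = 0.206). Slc2a2, the main glucose transporter of mouse beta cells, averaged 88.6 ± 15.3 CPM at 20 mM and 109 ± 24.6 CPM at 11.8 mM (-0.30 ± 0.15; adjusted p = 0.637).

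Of 22 genes of pyruvate entry and the shuttles that carry cytosolic NADH into mitochondria, none passed in any comparison. Gpd1, the cytosolic enzyme of the glycerol phosphate shuttle, averaged 11.6 ± 3.59 CPM at 35 mM and 7.04 ± 1.26 CPM at 11.8 mM (log2 fold change 0.73 ± 0.28; adjusted p = 0.322, edgeR with Benjamini-Hochberg adjustment). Pdk3, a further pyruvate dehydrogenase kinase, had 0.65 ± 0.27 at 35 against 11.8 mM (adjusted p = 0.387). Mdh1, the cytosolic malate dehydrogenase of the malate-aspartate shuttle, averaged 457 ± 39.6 CPM at 20 mM and 334 ± 37.4 CPM at 11.8 mM (0.45 ± 0.13; adjusted p = 0.2), and Pdhb, a pyruvate dehydrogenase subunit, had 0.35 ± 0.14 (adjusted p = 0.502).

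Of 12 other regulators of the HIF pathway none passed, and their median log2 fold change was 0.07 at 35 against 11.8 mM and 0.20 at 20 against 11.8 mM. Epas1, the alpha subunit of HIF that is prominent in endothelium, averaged 2.81 ± 0.766 CPM at 35 mM and 5.27 ± 1.40 CPM at 20 mM (-0.91 ± 0.40; adjusted p = 0.914, edgeR with Benjamini-Hochberg adjustment). Egln2, another HIF prolyl hydroxylase, had -0.56 ± 0.30 at 35 against 11.8 mM (adjusted p = 0.534). Eloc and Rbx1, parts of the ligase that removes HIF alpha, had 0.51 ± 0.17 (adjusted p = 0.309) and 0.29 ± 0.15 (adjusted p = 0.632) at 20 against 11.8 mM.

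Of 33 other HIF target genes 22 were tested, and none passed. Fam162a, a mitochondrial protein, averaged 172 ± 10.6 CPM at 11.8 mM, 229 ± 37.5 CPM at 20 mM and 223 ± 44.2 CPM at 35 mM. Against 11.8 mM, its log2 fold change was 0.41 ± 0.15 at 20 mM (adjusted p = 0.382, edgeR with Benjamini-Hochberg adjustment) and 0.37 ± 0.15 at 35 mM (adjusted p = 0.334). Hmox1, heme oxygenase, had -0.46 ± 0.19 at 35 against 11.8 mM (adjusted p = 0.402), and Hilpda, a lipid droplet protein, had -0.62 ± 0.28 at 20 against 11.8 mM (adjusted p = 0.582). At 35 against 20 mM, Gys1, the glycogen synthase of muscle, had 0.71 ± 0.31 (adjusted p = 0.914), and Wsb1, a ubiquitin ligase adaptor, had -0.45 ± 0.22 (adjusted p = 0.932).

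Mapping limits several members beyond Eno1. In the last 400 bases of the transcripts, windows of 50 bases that other annotated genes share made up 66.7% for Gapdh (193 genes), 32.0% for Gpi1, 23.9% for Ldhb, 23.2% for Bnip3, 17.4% for Pkm and 15.7% for Ldha. For Higd1a, Aldoa and Tpi1 the shares were 15.2%, 14.3% and 13.0%. For 15 of 34 members an exon of another gene overlaps on the opposite strand, and the counting strand is not given in the sources used here, so reads of such pairs may not be told apart. For 4 members (Pfkm, Pkm, Pfkfb2 and Hif1a) an exon of another gene overlaps on the same strand, where counting by strand does not separate the reads.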

How the data were processed

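RNA of 9 islet libraries, 3 for each glucose concentration, was measured with CEL-Seq2 from 3 ng of RNA, with 52 bases of read 2, per the labels' protocols. The authors deposited read counts per gene. The submitters' processing notes name cutadapt, TopHat, HTSeq, DESeq2 and the build GRCm38.p4, while the sources used here give neither versions nor the annotation or the strand used in counting. The counts are not collapsed by molecular identifier, so copies of a molecule count repeatedly, and statements of depth cover counting error only. The 27 sub-libraries, 3 per sample, were assigned to samples by the sample sheet of the series and summed. Another 30 columns of values by sample carry names that match no label, and were not used. Of 22145 features, 92 spike-in RNAs and 5 summary lines (19.6% to 29.9% of counted reads per library) were left out. Symbols, coordinates and overlaps came from GENCODE M21 (GRCm38).

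The tests used edgeR 4.0.16 in R 4.3.3 (TMM, filterByExpr, a mean per concentration over all 9 libraries, robust quasi-likelihood test), and genes were called where the p-value, adjusted by Benjamini-Hochberg over 9739 genes, was under 0.05. Standard errors are the log2 fold change divided by the square root of F. With 3 libraries per group, an exact permutation test gives at least p = 0.1. Members named with values in every library are the 6 with the smallest p in each comparison, and paralogs and further members are given side by side or by their values; from each other pathway list the called genes and the 2 with the smallest p in each comparison are named. Ldha, Aldoa, Slc2a1, Bnip3, Car9 and Egln3 were shown by library after their values were seen. The members, lists and tests were chosen with earlier results of these data known. The lists hold 1 called gene whose name is not reported here, and the counts include it. Tested on simulated data with 9739 genes, the method called 25 of 28043 unchanged genes. Alternative settings were size factors of DESeq2 for normalization and library sizes computed without the 20 most abundant genes. The low-count filter was left out or set at 10 CPM in 3 libraries. Further settings were the Wald test of DESeq2 1.42.0, a block for the replicate number and fits of only the concentrations compared. Each library was also left out in turn, and each barcode set was used alone. Removal of 2 sub-libraries with many alignments that were not unique and the counts of lowest means at 20 mM with each library left out were added after the data were seen.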

Additional observations from a re-analysis of the deposited data

How the results depend on the processing

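The count of members called stayed at 0 at 20 against 11.8 mM and at 35 against 20 mM under all 20 alternatives. At 35 against 11.8 mM it was 1 with no filter on low counts (Eno1, log2 fold change 0.64, adjusted p = 0.0289 by edgeR), and with each library left out it ran from 0 to 1, the 1 being Eno1 without the second 11.8 mM library. The cause was not tested. Over 346 values of named members, 342 kept their direction and side of the threshold, 2 newly passed (both Eno1) and 2 turned: Pfkp at 20 against 11.8 mM was 0.03 without the second 11.8 mM library (-0.62 to 0.03 with each library left out), and Pfkl at 20 against 11.8 mM was 0.19 with barcode set 1 alone. With the replicate number as a block (replicate block), 0 members were called in each comparison and Eno1 at 35 against 11.8 mM was 0.70 (adjusted p = 0.065). Deviations of same-numbered libraries correlated at -0.146 to 0.0459, and those of differently numbered libraries at -0.159 to 0.163. Over all tested genes these values showed no pairing by number, but with 3 libraries per group they cannot exclude one. Within the module, the second library was the highest for 17, 13 and 22 of 28 tested members at 11.8, 20 and 35 mM. The shares of all genes were 32.9%, 31.7% and 32.8%. With each library left out, the count of all genes called ran from 41 to 138 at 35 against 11.8 mM, from 7 to 35 at 20 against 11.8 mM and from 1 to 7 at 35 against 20 mM. With no filter the counts of all genes at 35 and 20 against 11.8 mM were 148 and 51, and the DESeq2 Wald test called 51 at 20 against 11.8 mM. Single barcode sets gave 12 to 42 at 35 against 11.8 mM. The count of members with their lowest mean at 20 mM ran from 7 to 16 with each library left out, a check added after the data were seen. Low counts limit the untested members and, among those tested, the members with the fewest counts, Kdm3a (82 in all), Pfkfb3 (95) and Ankrd37 (112). Why these counts were low was not tested.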
